A study of Mus musculus with 12 samples.

Results

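Glycolysis, the pentose phosphate pathway and nucleotide synthesis were followed through 41 genes, chosen by name as the enzymes of these routes, out of 55416 gene identifiers counted in the series. Their poly(A) RNA was sequenced from E14Tg2a.4, a mouse embryonic stem cell line, in a derivative in which Rpl31, a protein of the large ribosomal subunit, carried FLAG, TEV and AviTag sequences (Rpl31-FTA). All groups shared this 1 modified line and a transfection with a pair of plasmids, 1 for each ALIBi fragment (N- or C-terminal), and ALIBi biotinylated tagged ribosomes either at the endoplasmic reticulum (ER) or in the cytosol. The 4 groups of 3 biological replicates each were ER ribosome-bound RNA, eluted from ribosomes marked with ER targeting, cytosol ribosome-bound RNA, ER whole-cell RNA and cytosol whole-cell RNA. Whole-cell RNA came from lysate set aside before purification, and lysis was done with cycloheximide. The labels call the replicates biological without saying how the cultures were kept apart, and p-values therefore cover only the variation among these 12 libraries, which may be technical. The share of ribosomes captured is not given in the sources used here, and ribosome-bound levels are relative within a library.

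Glycolysis splits glucose into pyruvate in the cytosol, and lactate dehydrogenase turns pyruvate into lactate. The pentose phosphate pathway branches off at glucose 6-phosphate and yields NADPH and ribose phosphate, on which purines and pyrimidines are built with carbon units from serine through folate. Pluripotent stem cells are known for active glycolysis and rapid division. Enzymes of these routes are soluble cytosolic proteins, whereas a protein bound for the ER or a membrane usually carries a hydrophobic stretch that brings its translating ribosome to the ER.

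The coding starts of 3 genes are shown to set a cytosolic enzyme beside its relative in the ER. G6pdx encodes glucose-6-phosphate dehydrogenase, the first enzyme of the cytosolic oxidative branch. H6pd encodes the enzyme of the ER lumen that acts on the same sugar phosphate. Tkt encodes transketolase of the non-oxidative branch and is printed because it was the single enzyme of the 41 that was higher on ER ribosomes. The first 120 coding bases are given 5′ to 3′ from the GENCODE M21 transcript with the longest coding sequence (build GRCm38, whereas the reads were counted on GRCm39), and capitals mark the 15 codons with the highest mean hydropathy on the Kyte-Doolittle scale among the first 40 residues.
G6pdx: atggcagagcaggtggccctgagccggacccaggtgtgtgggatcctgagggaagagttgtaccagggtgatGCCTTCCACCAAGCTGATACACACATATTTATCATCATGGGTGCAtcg
Tkt: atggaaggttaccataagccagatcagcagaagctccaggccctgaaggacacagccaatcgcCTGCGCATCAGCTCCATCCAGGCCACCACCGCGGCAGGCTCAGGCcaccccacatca
H6pd: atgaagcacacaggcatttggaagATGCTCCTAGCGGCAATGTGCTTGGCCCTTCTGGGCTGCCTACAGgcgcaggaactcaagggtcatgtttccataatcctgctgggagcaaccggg
The capitalised stretch had a mean hydropathy of 0.79 at residues 25 to 39 in G6pdx, 0.37 at residues 22 to 36 in Tkt and 2.21 at residues 9 to 23 in H6pd. The start codon lay at chrX:74428169-74428171 on the minus strand in exon 2 for G6pdx, at chr14:30549274-30549276 on the plus strand in exon 1 for Tkt and at chr4:150008753-150008755 on the minus strand in exon 1 for H6pd.

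Each library held 21.1 to 26.9 M reads assigned to genes. All 10 embryonic stem cell markers, Pou5f1, Nanog and Sox2 among them, had at least 140.2 CPM (counts per 1000000, with library sizes scaled by the trimmed mean of M values, TMM) in every library. Markers of other cell types were low: the 6 fibroblast, 6 primitive endoderm, 5 mesoderm and 5 neural genes lay at or below 62.1, 9.52, 18.7 and 59.9 CPM, and 6 of these 22, Dcn and Lum of fibroblasts among them, stayed below 1 CPM in all libraries. The fibroblast markers, all secreted or surface proteins, summed to at least 75.8 CPM on ER ribosomes, at most 23.8 CPM on cytosol ribosomes and 23.0 to 24.8 CPM in whole-cell RNA, while the neural markers summed to 67.7 to 70.6 CPM on ER ribosomes and 79.6 to 82.3 CPM on cytosol ribosomes and the mesoderm markers to 15.2 to 16.8 CPM on ER ribosomes and 19.9 to 22.8 CPM on cytosol ribosomes, without overlap. The primitive endoderm markers overlapped, at 13.3 to 18.2 CPM on ER ribosomes and 16.9 to 18.9 CPM on cytosol ribosomes. The stem cell markers averaged 14011 CPM in sum on ER ribosomes and 10853 CPM on cytosol ribosomes. The higher sum came from Tdgf1 (4647 against 1284 CPM) and Fgf4 (882 against 305 CPM). Sox2 was similar at 806 and 804 CPM. Means of Pou5f1 (1390 against 1641 CPM), Nanog, Esrrb, Zfp42, Klf4, Dppa5a and Tfcp2l1 were lower on ER ribosomes. The part of these differences in the results was not tested. All 41 enzymes passed the filter on low counts, which kept 16221 genes. Each comparison is given as a log2 ratio and its standard error (SE) from the quasi-likelihood test of edgeR, called at an adjusted p under 0.05 after Benjamini-Hochberg adjustment over all 16221 genes, and every direction is relative to the TMM scale, on which the median of those genes lay between -0.05 and 0.01 in the 5 comparisons.

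The mRNAs of these enzymes were found on both kinds of ribosome, with small differences. On ER ribosomes, relative to cytosol ribosomes, 27 of the 41 were lower, 1 was higher and 13 did not pass the test. That is 65.9% lower, where 24.6% of all tested genes were lower, and 2.44% higher, where 29.1% of all tested genes were higher. The shares of all tested genes are also the background for the counts of single routes below. The log2 ratios of the 41 ran from -0.43 for Aldoc to 0.52 for Tkt, with a median of -0.17 against 0.00 for all tested genes. A set of 95 other cytosolic proteins (proteasome, chaperonin, aminoacyl-tRNA synthetases and translation factors) had a median of -0.21 with 67 lower and 12 higher.

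The sign of these small ratios depended on the scaling. With the summed counts of those 95 cytosolic proteins as the scale, the group stayed lower. The median of all tested genes was then 0.03 and that of the 41 was -0.14, with 26 lower and 6 higher. When libraries were scaled to the median ratio of those 95 cytosolic proteins, a choice made after seeing the data, the median of all tested genes moved to 0.25, the median of the 41 moved to 0.07, and 18 were higher and 9 lower. A change of scale moves the log2 ratios of all genes by about the same amount. The distance of -0.175 between the medians of the 41 and of all genes therefore stayed by construction. With the median ratio scaling the 9 enzymes still lower were Aldoc, Adsl, Gart, Umps, Tpi1, Atic, Pgk1, Psat1 and Taldo1. These same 9 were lower when a change beyond 1.2-fold was required. Both settings ask for a larger drop in the same ratios, so the match is no second support. Tkt was higher under every setting tried.

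A few calls changed when 1 library was left out, also with libraries outside this comparison. Leaving out any 1 of 9 libraries moved the median of all tested genes to between -0.06 and -0.05. These were all ER ribosome-bound, cytosol ribosome-bound replicate 2, ER whole-cell replicates 2 and 3, and all cytosol whole-cell libraries. RLE size factors and leaving out mitochondrially encoded genes also moved this median, to -0.04 and -0.06. Without any 1 of these 9 libraries the ratio of Tkt lay between 0.44 and 0.48. Pfkm did not pass without cytosol ribosome-bound replicate 3 (log2 -0.12, adjusted p = 0.063 by edgeR), and without that library Hk2 passed at 0.14 and G6pdx at -0.13. Gpi1 passed at -0.11 and -0.15 without ER ribosome-bound replicates 1 and 2, at -0.15 without cytosol ribosome-bound replicate 2, and at -0.12 without ER whole-cell replicate 2 or 3 or any 1 of the cytosol whole-cell libraries. G6pdx passed at -0.16 and Rpia at -0.38 without ER ribosome-bound replicate 2, and Pgd at -0.13 without ER ribosome-bound replicate 3. The other 35 enzymes kept their call in all these fits.

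**Figure D1:**
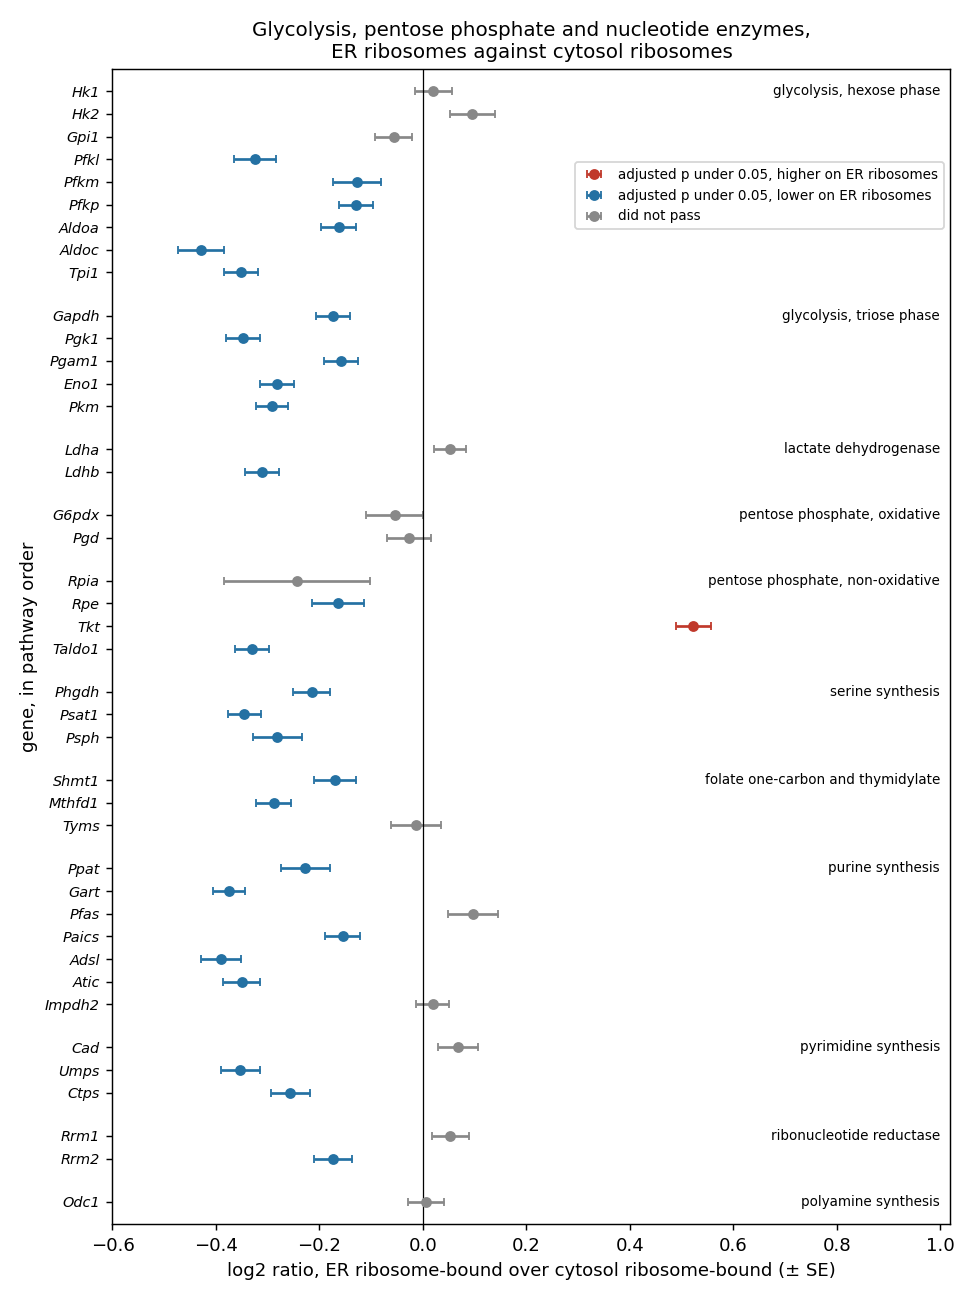
Log2 ratio of ER ribosome-bound over cytosol ribosome-bound RNA (± SE, 3 libraries against 3) for the 41 enzymes in pathway order with TMM scaling. Tkt stands alone at 0.52, 27 enzymes lie between -0.43 and -0.13 and passed the test, and 13 in grey did not pass. With scaling to cytosolic proteins by median ratio 15 of the plotted ratios change from below to above 0. A further 1, which passed with neither scaling, also changes sign.

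In the first phase of glycolysis, from glucose to triose phosphates, 6 of 9 genes were lower on ER ribosomes and 3 did not pass. The hexokinases Hk1 and Hk2, which trap glucose in the cell, gave 0.02 (SE 0.036) and 0.10 (SE 0.044), and Gpi1, which interconverts glucose and fructose phosphates, gave -0.06 (SE 0.036). The phosphofructokinase genes Pfkl, Pfkm and Pfkp, which encode the liver, muscle and platelet type of the committing enzyme, were lower by unequal amounts, with log2 ratios of -0.32 (SE 0.041), -0.13 (SE 0.046) and -0.13 (SE 0.033). The signs of Pfkm and Pfkp turned to 0.12 and 0.11 with the cytosolic median ratio scaling.

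Aldolase splits fructose 1,6-bisphosphate, and its brain type Aldoc had the lowest ratio of the 41. Aldoc stood at 94.4, 105 and 90.2 CPM on ER ribosomes, against 133, 126 and 131 CPM on cytosol ribosomes. The libraries did not overlap, and the log2 ratio was -0.43 (SE 0.044, adjusted p = 1.0e-10 by edgeR). The more abundant Aldoa averaged 5538 ± 133 CPM on ER ribosomes and 6202 ± 210 CPM on cytosol ribosomes (SD, n = 3 each), a log2 ratio of -0.16 that turned to 0.08 with the cytosolic median ratio scaling. Triose phosphate isomerase, Tpi1, had 1078, 1115 and 1099.7 CPM on ER ribosomes, against 1359, 1422 and 1421 CPM on cytosol ribosomes. No library of either group reached the other, and the log2 ratio was -0.35 (SE 0.033, adjusted p = 1.3e-11 by edgeR).

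In the second phase, from triose phosphates to pyruvate, all 5 genes were lower on ER ribosomes with TMM scaling, and Gapdh and Pgam1 turned to 0.07 and 0.09 with the cytosolic median ratio scaling. Gapdh, the dehydrogenase that captures energy as NADH, had 5576, 5771 and 5504 CPM on ER ribosomes, against 6398, 6198 and 6417 CPM on cytosol ribosomes. Pkm, pyruvate kinase, had 5768, 5964 and 5713 CPM on ER ribosomes, against 6942, 7099.8 and 7309 CPM on cytosol ribosomes. In both genes the groups did not overlap, with log2 ratios of -0.17 (SE 0.033, adjusted p = 2.4e-05 by edgeR) for Gapdh and -0.29 (SE 0.031, adjusted p = 3.7e-10 by edgeR) for Pkm. Pgk1, the first enzyme of glycolysis to make ATP, was lower by more, at 1748, 1818 and 1765 CPM on ER ribosomes, against 2193, 2305 and 2288 CPM on cytosol ribosomes (log2 -0.35, SE 0.033). The mutase Pgam1 gave -0.16 (SE 0.033) and the enolase Eno1 gave -0.28 (SE 0.032). Eno1 is uncertain because the near-identical Eno1b was listed with 22.5% of its counts, and reads between such copies can be split.

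The subunits of lactate dehydrogenase differed in their calls. Ldhb, the heart type, was lower on ER ribosomes at 632, 649.6 and 623 CPM, against 807, 766 and 790.2 CPM on cytosol ribosomes (log2 -0.31, SE 0.033, adjusted p = 2.6e-10 by edgeR). Ldha, the muscle type, had 2176, 2283 and 2193 CPM on ER ribosomes, against 2132, 2129 and 2157 CPM on cytosol ribosomes. Its ER libraries all lay above the cytosol libraries, but the log2 ratio of 0.05 (SE 0.031) did not pass (adjusted p = 0.17 by edgeR). The difference between the subunits was not tested. Summed over the 14 glycolytic genes, the level was 25786 to 26929 CPM on ER ribosomes, against 30271 to 31166 CPM on cytosol ribosomes.

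Tkt was the 1 pentose phosphate gene of 6 that was higher on ER ribosomes, 2 were lower and 3 did not pass. Of all tested genes 29.1% were higher and 24.6% were lower. Transketolase carries carbon pairs between sugar phosphates and links the pentose phosphate pathway back to glycolysis. Tkt stood at 899, 936 and 886 CPM on ER ribosomes, against 639, 624 and 631 CPM on cytosol ribosomes. All ER libraries lay above all cytosol libraries, and the log2 ratio was 0.52 (SE 0.034, 1.44-fold, adjusted p = 4.0e-16 by edgeR). The ratio was 0.77 with the cytosolic median ratio scaling. Among the 41 and the other 59 cytosolic pathway enzymes tested, the next highest called ratio was that of Amd1 at 0.20.

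Transaldolase, Taldo1, works beside transketolase and was lower on ER ribosomes, at 243, 251 and 239.9 CPM, against 307, 308 and 307 CPM on cytosol ribosomes (log2 -0.33, SE 0.033, adjusted p = 9.8e-11 by edgeR). The groups did not overlap. Rpe, the epimerase, was lower at -0.16 (SE 0.05) and turned to 0.08 with the cytosolic median ratio scaling. Rpia, the isomerase that makes ribose 5-phosphate, was the least abundant enzyme, at 3.83 ± 0.59 CPM on ER ribosomes and 4.55 ± 0.30 CPM on cytosol ribosomes (SD, n = 3 each). Its ratio of -0.24 (SE 0.141) did not pass. In the oxidative branch neither gene passed, with -0.05 (SE 0.055) for G6pdx and -0.03 (SE 0.043) for Pgd, the dehydrogenase that releases carbon dioxide. The longest annotated protein of Tkt showed no hydrophobic stretch above the range of the other enzymes: its highest window of 15 residues averaged 1.64, which was also the median of the 41.

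**Figure D2:**
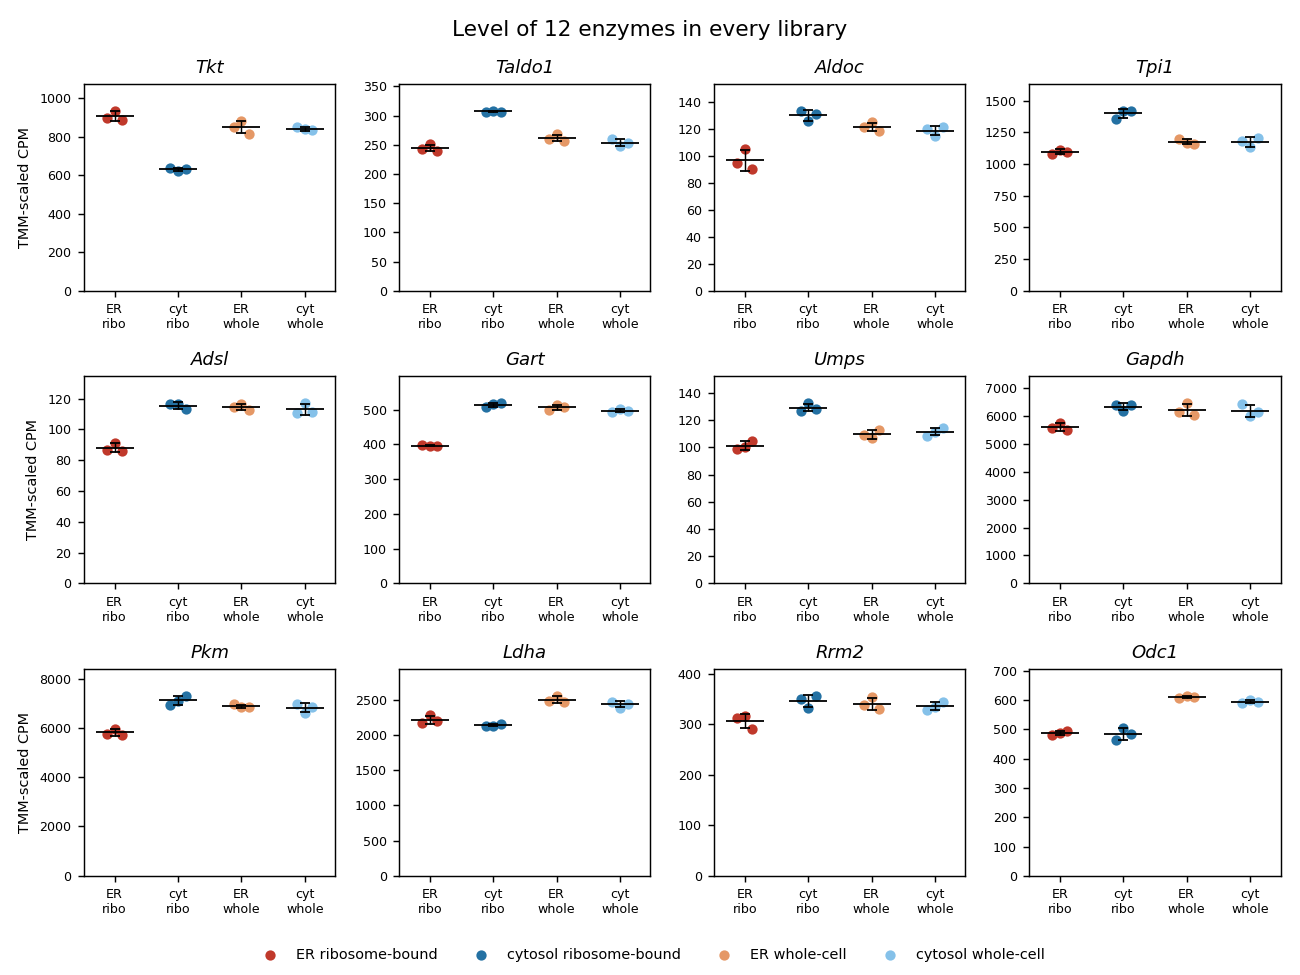
Level of 12 enzymes in TMM-scaled CPM (axes from 0) in every library of the 4 groups, with the mean as a horizontal line and the SD as whiskers (n = 3). Tkt is higher on ER ribosomes than on cytosol ribosomes (907 against 631 CPM on average), Taldo1, Aldoc, Tpi1, Adsl, Gart and Umps are lower on ER ribosomes, and Ldha and Odc1 did not pass.

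All 3 genes of serine synthesis, which draws on a glycolytic intermediate, were lower on ER ribosomes, Phgdh turning to 0.03 with the cytosolic median ratio scaling. The dehydrogenase Phgdh gave -0.22 (SE 0.036), the aminotransferase Psat1 -0.35 (SE 0.032) and the phosphatase Psph -0.28 (SE 0.048). Of the folate enzymes, Mthfd1, the trifunctional enzyme that interconverts folate carbon units, was lower at -0.29 (SE 0.034), and Shmt1, which moves a carbon from serine to folate, at -0.17 (SE 0.04), turning to 0.08 with the cytosolic median ratio scaling. Tyms, thymidylate synthase, gave -0.01 (SE 0.048) and did not pass. Psph, Shmt1, Pfkm, Pfkp, Rpe, Ppat, Paics, G6pdx and Impdh2 overlap a gene on the opposite strand, and since the strand setting of the counting is not given in the sources used here, their counts are uncertain. Over the 12 libraries Cct6a, which overlaps Psph, held 173710 counts against 12588 for Psph. Paics held 221817 counts against 28188 for Ppat. For the remaining genes the overlapping gene held 2.82% to 59.3% of their counts.

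Of 7 purine genes, 5 were lower on ER ribosomes and 2 did not pass. Adsl, which acts at 2 steps of the pathway, had 86.95, 91.4 and 86.0 CPM on ER ribosomes, against 117, 117 and 113 CPM on cytosol ribosomes (log2 -0.39, SE 0.039, adjusted p = 5.2e-11 by edgeR). Gart, a trifunctional enzyme of the early steps, had 398, 396 and 396 CPM on ER ribosomes, against 508, 516 and 519 CPM on cytosol ribosomes (log2 -0.37, SE 0.031, adjusted p = 6.9e-13 by edgeR). Neither gene's groups overlapped. Atic, which closes the purine ring, had 168, 169.6 and 158 CPM on ER ribosomes, against 207, 214 and 211 CPM on cytosol ribosomes, again with no overlap (log2 -0.35, SE 0.036, adjusted p = 1.3e-10 by edgeR). The first enzyme Ppat gave -0.23 (SE 0.047). Paics gave -0.16 (SE 0.034), and Ppat and Paics turned to 0.02 and 0.09 with the cytosolic median ratio scaling. Pfas, the amidotransferase of the fourth step, gave 0.10 (SE 0.049), and Impdh2, which starts the branch to guanine nucleotides, gave 0.02 (SE 0.032).

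Of 3 pyrimidine genes, 2 were lower on ER ribosomes and 1 did not pass. Umps, which makes uridine monophosphate, had 98.5, 100.4 and 105 CPM on ER ribosomes, against 127, 133 and 128 CPM on cytosol ribosomes, with no overlap (log2 -0.35, SE 0.038, adjusted p = 4.3e-10 by edgeR). Ctps, which converts UTP to CTP, gave -0.26 (SE 0.037). Cad, the multifunctional protein of the first steps, gave 0.07 (SE 0.038) and did not pass. Ribonucleotide reductase makes the deoxynucleotides for DNA from a large and a small subunit. Rrm2, the small subunit, had 312, 317 and 291 CPM on ER ribosomes, against 349.6, 332 and 357 CPM on cytosol ribosomes (log2 -0.17, SE 0.037, adjusted p = 1.4e-04 by edgeR), and turned to 0.07 with the cytosolic median ratio scaling. Rrm1, the large subunit, gave 0.05 (SE 0.036) and did not pass. Odc1, ornithine decarboxylase, which starts polyamine synthesis, had 479.8, 487 and 494 CPM on ER ribosomes, against 464, 506 and 484 CPM on cytosol ribosomes. These libraries overlapped, and the ratio was 0.01 (SE 0.034).

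Enzymes and carriers of the same routes that enter the ER or a membrane showed a different range. A list of 93 further pathway genes, of which 87 were tested, held 14 such genes. All 14 were higher on ER ribosomes, where 29.1% of all tested genes were higher. Their log2 ratios ran from 1.19 (Slc37a4, the carrier of glucose 6-phosphate into the ER) to 2.61 (Bsg, basigin, the partner of lactate carriers) with a median of 1.94. H6pd stood at 90.97, 81.2 and 90.5 CPM on ER ribosomes, against 18.6, 20.5 and 20.6 CPM on cytosol ribosomes (log2 2.13, SE 0.055, adjusted p = 2.9e-28 by edgeR). Its cytosolic relative G6pdx had 53.0, 56.1 and 49.5 CPM on ER ribosomes, against 57.9, 58.0 and 49.0 CPM on cytosol ribosomes, and these libraries overlapped. The capitalised stretch of the printed H6pd start has a mean hydropathy of 2.21, against 0.79 in G6pdx.

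Adpgk, an ADP-dependent glucokinase of the ER, gave 2.09 (SE 0.039), while Hk1 and Hk2, classed as cytosolic, did not pass. The glucose carriers Slc2a1 and Slc2a3 gave 1.81 (SE 0.045) and 2.00 (SE 0.036), and the lactate carriers Slc16a1 and Slc16a3 gave 2.03 (SE 0.042) and 1.97 (SE 0.041). Slc2a1 and Slc37a4 were named after their values were seen. Of the nucleotidases at the surface or in the ER, Nt5e gave 2.16 (SE 0.294), Entpd5 1.91 (SE 0.071) and Entpd6 1.901 (SE 0.049), and the glucose-6-phosphatase G6pc3 gave 1.84 (SE 0.062). For all 14 genes the highest window of hydropathy averaged 2.06 to 3.39, against 1.03 to 2.25 in the 41 cytosolic enzymes, so these ranges overlapped. The most hydrophobic window among the first 40 residues averaged 1.07 (G6pc3) to 2.59 (Adpgk) in the 14, against -0.33 to 2.04 (Pgd) in the 41, and these ranges overlapped further. The relation of hydropathy to the ratios was not tested.

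The 59 further cytosolic enzymes tested had a median of -0.17, equal to that of the 41 at this precision. Of them 34 were lower and 2 higher, where 24.6% of all tested genes were lower and 29.1% higher. The 2 higher genes, named for that reason, were Amd1, S-adenosylmethionine decarboxylase of polyamine synthesis, at 0.20 (SE 0.044), and Nt5c2, a cytosolic nucleotidase, at 0.13 (SE 0.056). The lowest were Adk, adenosine kinase, at -0.46 (SE 0.06) and Rbks, ribokinase, at -0.46 (SE 0.15). Mitochondrial relatives of the folate enzymes, which are made in the cytosol and imported, also had small ratios: Mthfd2 was lower at -0.30 (SE 0.049), and Shmt2 at -0.04 and Mthfd1l at 0.05 did not pass. Of the 13 mitochondrial enzymes, 5 were lower (24.6% of all tested genes were) and none was higher by edgeR (29.1% of all tested genes were), and 5 had an unadjusted p under 0.05. Dhodh, the pyrimidine enzyme of the inner mitochondrial membrane, gave 0.00 (SE 0.05). Dut, found in nucleus and mitochondrion, was lower at -0.45 (SE 0.034). Hprt, the purine salvage enzyme, did not pass the filter on low counts and reached at most 0.47 CPM, and E14Tg2a cells are known to lack HPRT activity.

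**Figure D3:**
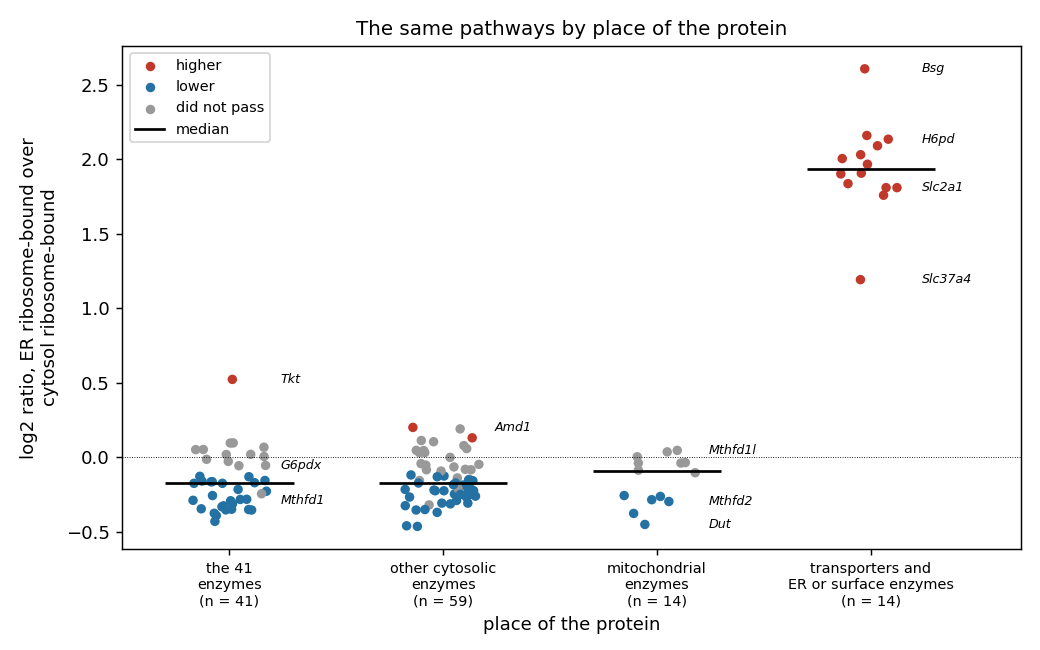
Log2 ratio of ER ribosome-bound over cytosol ribosome-bound RNA for the 41 enzymes and 87 other genes of the same routes by place of the protein, each point a gene and each bar a median, with TMM scaling. The transporters and enzymes of the ER or surface lie at 1.19 to 2.61, and the other 3 classes (Dut stands with the mitochondrial enzymes) lie at 0.52 or below; with scaling to cytosolic proteins by median ratio the median of the 41 moves from below to above 0.

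Relative to whole-cell RNA, most enzyme mRNAs were lower on ER ribosomes with TMM scaling, and fewer on cytosol ribosomes. On ER ribosomes 37 of the 41 were lower than in ER whole-cell RNA (90.2%, where 30.6% of all tested genes were lower), 1 was higher (2.44%, where 32.5% were higher) and 3 did not pass. On cytosol ribosomes 18 were lower than in cytosol whole-cell RNA (43.9%, where 33.0% of all tested genes were lower), 6 were higher (14.6%, where 20.8% were higher) and 17 did not pass. The medians of the 41 were -0.31 with ER targeting and -0.08 with cytosol targeting, against 0.01 and -0.05 for all tested genes. A sum of cytosolic protein counts as the scale moved the medians of all tested genes to 0.33 and 0.21. The medians of the 41 moved to 0.01 and 0.19. With it 16 were higher and 11 lower on ER ribosomes, and 25 higher and 8 lower on cytosol ribosomes. The lower direction of the group did not hold with this scale. With the cytosolic median ratio scaling the medians of the 41 were -0.065 and -0.094, against 0.259 and -0.068 for all tested genes. The counts were then 19 lower and 12 higher on ER ribosomes, and 20 lower and 6 higher on cytosol ribosomes. In bulk RNA a lower level in fewer cells and less RNA per cell cannot be told apart. Mitochondrially encoded RNA made up 0.033% to 0.045% of counts in ribosome-bound libraries and 1.86% to 1.94% in whole-cell libraries, and without these genes the medians of the 41 were -0.30 with ER and -0.02 with cytosol targeting.

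Cad and Pfas, with the longest coding sequences of the 41, had the lowest ratios over whole-cell RNA on ribosomes of both kinds. Cad had 219, 223 and 207 CPM on ER ribosomes, against 503, 529 and 514 CPM in ER whole-cell RNA, a log2 ratio of -1.25 (SE 0.038, adjusted p = 8.2e-26 by edgeR). With cytosol targeting Cad had 209, 196 and 214 CPM on ribosomes, against 509.9, 513 and 481 CPM in whole-cell RNA, a log2 ratio of -1.28 (SE 0.038, adjusted p = 2.8e-25 by edgeR). No ribosome-bound library reached a whole-cell library in either targeting. Pfas followed with -1.06 (SE 0.046) for ER and -1.19 (SE 0.046) for cytosol targeting. Rrm1 gave -0.67 (SE 0.036) for ER and -0.70 (SE 0.036) for cytosol targeting, and Hk2 gave -0.57 (SE 0.043) and -0.52 (SE 0.043) in the same order. Pfkl was lower by -0.76 (SE 0.041) with ER targeting and -0.43 (SE 0.041) with cytosol targeting, and Pfkp by -0.58 (SE 0.033) and -0.38 (SE 0.033).

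The enzymes higher on cytosol ribosomes than in whole-cell RNA were Taldo1 at 0.28 (SE 0.033), Tpi1 at 0.25 (SE 0.033), Psph and Umps at 0.21 (SE 0.048 and 0.038), Aldoc at 0.14 (SE 0.043) and Eno1 at 0.11 (SE 0.032). The values of Psph and Eno1 are uncertain for the overlap and the copy named above. The count of 6 higher enzymes became 11 to 13 when any 1 of 9 libraries was left out, the same 9 as above, and the median of all tested genes then lay at 0.00 in place of -0.05. On ER ribosomes the single higher enzyme was Tkt, with 899, 936 and 886 CPM, against 851, 881 and 817 CPM in ER whole-cell RNA (log2 0.09, SE 0.033, adjusted p = 0.014 by edgeR). It did not pass without ER ribosome-bound replicate 2 (0.07, adjusted p = 0.12 by edgeR) or without ER whole-cell replicate 3 (0.07, adjusted p = 0.13 by edgeR). On cytosol ribosomes Tkt was lower than in whole-cell RNA, at 639, 624 and 631 CPM, against 849.9, 840.2 and 833 CPM (log2 -0.41, SE 0.033, adjusted p = 5.4e-13 by edgeR), and no library of either group reached the other.

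**Figure D4:**
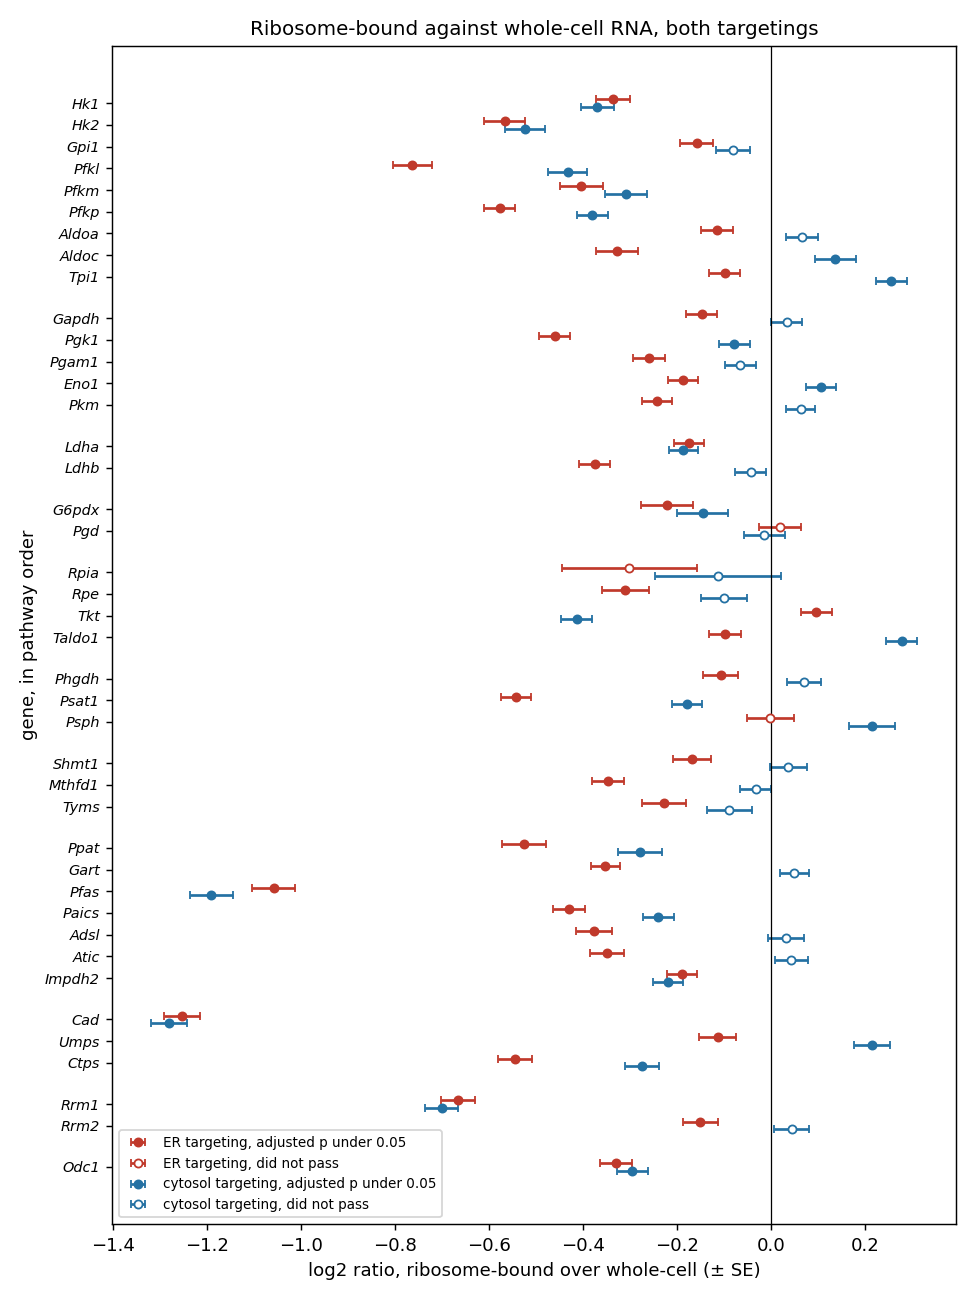
Log2 ratio of ribosome-bound over whole-cell RNA (± SE, 3 libraries against 3) for the 41 enzymes, ER targeting above cytosol targeting, with TMM scaling. Cad and Pfas lie below -1 in both, and Tkt is above 0 with ER and at -0.41 with cytosol targeting. Taldo1, Tpi1, Psph, Umps, Aldoc and Eno1 are higher with cytosol targeting. With scaling by summed cytosolic protein counts the medians lie at 0.01 and 0.19, and with the cytosolic median ratio at -0.065 and -0.094.

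Across the 41 genes, coding length and the ratio over whole-cell RNA had a Spearman correlation of -0.48 with ER targeting and -0.52 with cytosol targeting. Over 14160 tested genes with a coding length the values were -0.29 and -0.38. These describe genes that share the same libraries and are no independent replicates. Without Cad and Pfas the values over the remaining 39 enzymes were -0.40 and -0.44. The 10 enzymes with more than 2000 coding bases had median ratios of -0.57 with ER and -0.41 with cytosol targeting, and the 31 shorter ones had -0.22 and -0.04. Cad has 6675 coding bases, Pfas 4011 and Gart 3030, and Gart, named here after its values were seen, gave -0.35 with ER targeting and 0.05 with cytosol targeting. For ER over cytosol ribosomes the correlation was 0.30 across the 41, 0.19 without Cad and Pfas, and 0.05 across all genes.

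**Figure D5:**
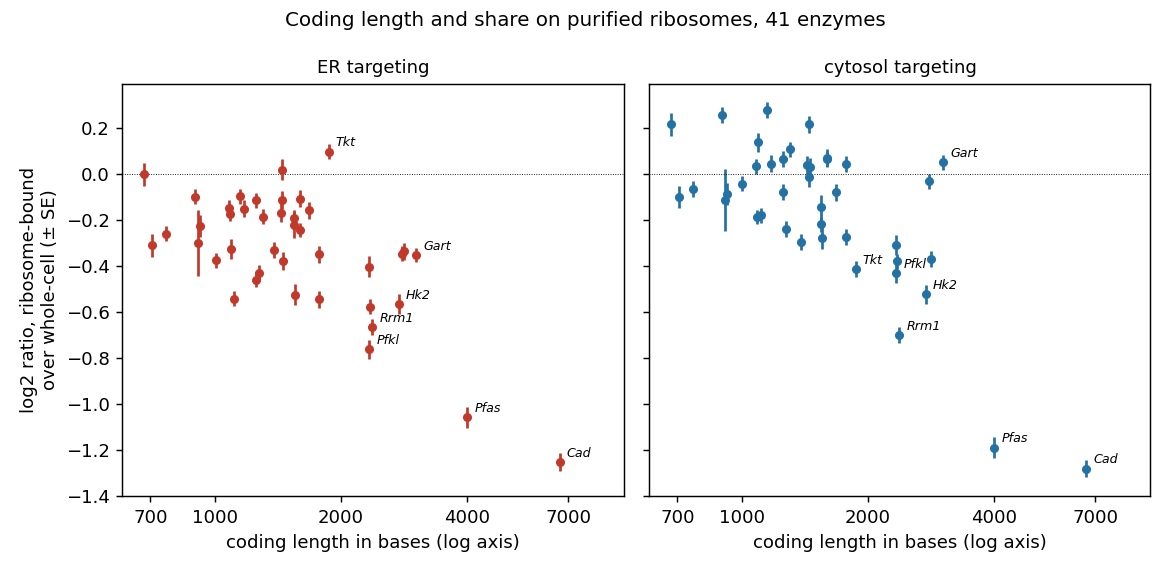
Log2 ratio of ribosome-bound over whole-cell RNA (± SE) against coding length in bases on a log axis for the 41 enzymes, ER targeting on the left and cytosol targeting on the right, with TMM scaling. Pfas (4011 bases) and Cad (6675 bases) are the lowest points in both panels, and Gart lies at -0.35 on the left and 0.05 on the right.

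The enrichment over whole-cell RNA differed between the targetings for many of the genes. In the test of ER minus cytosol enrichment, 26 of the 41 were lower (63.4%, where 18.6% of all tested genes were lower), 1 was higher (2.44%, where 24.8% were higher) and 14 did not pass. The median of the 41 was -0.19, against 0.00 for all tested genes. Tkt was the higher one at 0.51 (SE 0.047, adjusted p = 1.6e-11 by edgeR). The lowest were Aldoc at -0.46 (SE 0.061), Adsl at -0.41 (SE 0.054), Gart at -0.40 (SE 0.044), Atic at -0.39 (SE 0.05), Pgk1 at -0.38 (SE 0.047) and Taldo1 at -0.38 (SE 0.048). Cad at 0.03 (SE 0.053) and Rrm1 at 0.04 (SE 0.05), also chosen after their values were seen, did not pass, although both were far below whole-cell RNA with either targeting. This comparison shares its ribosome-bound libraries with the direct one, so the values are no second support. With the cytosolic median ratio scaling the counts were 6 lower and 12 higher. The median of the 41 was then 0.065, against 0.261 for all tested genes. With the sum of cytosolic protein counts as the scale the counts were 22 lower and 2 higher. The median of the 41 was then -0.143, against 0.052 for all tested genes.

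No enzyme passed between the whole-cell groups. In ER whole-cell against cytosol whole-cell RNA none of the 41 passed by edgeR or by DESeq2 (0% of all tested genes were called in either direction), with log2 ratios from -0.07 to 0.14. At an unadjusted p under 0.05 there were 2 of the 41 and 634 of 16221 genes by edgeR. The 14 glycolytic genes summed to 30019 to 31077 CPM in ER whole-cell RNA and 29289 to 30938 CPM in cytosol whole-cell RNA.

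Per kilobase of transcript in cytosol whole-cell RNA, the level of Gapdh was the highest at 4864 CPM per kb, followed by Aldoa at 3828, Pkm at 2803 and Eno1 at 1826 CPM per kb. Ldha at 1341.5 and Pgk1 at 1309 CPM per kb came next, and the cytosol whole-cell libraries of Ldha and Pgk1 overlapped on this scale. The pentose phosphate gene with the highest level was Tkt, at 261 CPM per kb, with Taldo1 at 186 CPM per kb. G6pdx, the entry to the pathway, was at 22.9 CPM per kb. Among the nucleotide genes Impdh2 was at 429 and Paics at 339 CPM per kb, and Pfas was at 17.6 and Tyms at 15.2 CPM per kb. Of the pentose phosphate genes, Rpe was at 17.01 and Rpia at 2.68 CPM per kb, the lowest of the 41. Rpia rested on 69 to 142 counts per library.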

How the data were processed

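The authors deposited raw read counts, whole numbers for each Ensembl identifier in 12 libraries. The submitters' processing notes name GRCm39 as the build and STAR 2.7.9a, HTSeq 0.11.2 and DESeq2 as tools. The sources used here do not give the annotation release, the strand setting or the treatment of reads with several alignments. Class totals outside genes, 8.75% to 12.5% of reads, were left out. GENCODE M21 named 52083 of 55416 identifiers; the rest held 0.406% of counts. Of 2 identifiers named Aldoa, the first in sorted order was used, with 1723758 counts in the 12 libraries.

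The members and lists were chosen with earlier results of these data known. Genes were filtered with filterByExpr (16221 kept) and scaled with TMM. In edgeR 4.0.16 (R 4.3.3) a single model held the 4 group means, and 5 comparisons were tested by 2-sided quasi-likelihood tests. Each SE was obtained by dividing the size of the log2 ratio by the root of its F value. The common dispersion corresponded to a coefficient of variation of 3.6%. Alternatives were DESeq2 1.42.0, RLE size factors, scaling to 95 cytosolic proteins, other filters, glmTreat at 1.2-fold, replicate terms and leaving out each library. Between replicates of a group chi-square per gene was 2.07 to 8.73, above counting noise. Intervals and errors cover the spread between libraries and no amplification bias.

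The procedure was tested on simulated counts (16067 genes, modelled on ER and cytosol ribosome-bound libraries). It recovered 66% of 50 genes changed 1.25-fold, 72% of those changed 1.5-fold, 92% of those changed 2-fold and all of those changed 4-fold, and made 8 false calls. The simulation changed 200 genes, as many up as down, with 1 common spread for all genes. Far more genes were called in the data, so the simulation did not test the scaling of libraries. Hydropathy was averaged over windows of 15 residues of the longest annotated coding sequence. All members that were tested may be named for ER against cytosol ribosomes; for other comparisons the rule names up to 6 called members per direction, ranked by log2 ratio, and members of the same reaction.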

Additional observations from a re-analysis of the deposited data

Results flagged for a closer look

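For 7 enzymes, chosen as the largest called changes in each direction, the enrichment on ribosomes over whole-cell RNA differed between ER and cytosol targeting by the interaction term of edgeR's quasi-likelihood test, on the log2 scale as ER minus cytosol and with adjusted p-values of 6.2e-08 or less. The difference was 0.51 for Tkt, and it was -0.46 for Aldoc, -0.41 for Adsl, -0.40 for Gart, -0.39 for Atic, -0.38 for Pgk1 and -0.38 for Taldo1. Of 41 enzymes tested, 26 were lower and 1 higher in this term, where 18.6% of all tested genes were lower and 24.8% higher. The cytosolic median ratio scaling gave 6 lower and 12 higher, and the cytosolic sum gave 22 lower and 2 higher. With the median ratio the 41 had a median of 0.065, against 0.261 for all tested genes. With the sum these medians were -0.143 and 0.052. These 7 enzymes kept their direction and passed in each of the 12 fits that left out 1 library. They were chosen by this same term in these libraries, so the fits are no further support.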

How the results depend on the processing

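Counts are members of 41, and the shares of all tested genes given above hold for TMM scaling only. With the cytosolic sum as scale, 6 were higher and 26 lower on ER against cytosol ribosomes. Against whole-cell RNA, 16 were higher and 11 lower on ER ribosomes, and 25 higher and 8 lower on cytosol ribosomes. In the difference of enrichments 2 were higher and 22 lower. The medians of all tested genes on this scale were 0.034, 0.332, 0.214 and 0.052 in the same order. With the cytosolic median ratio, chosen after seeing the data, the counts were 18 higher and 9 lower for ER against cytosol ribosomes. They were 12 higher and 19 lower for ER and 6 higher and 20 lower for cytosol against whole-cell RNA. In the difference they were 12 higher and 6 lower. The medians of all tested genes were then 0.246, 0.259, -0.068 and 0.261 in the same order. The median ratio scale turned the sign of Gpi1 (0.19), Pfkm (0.12), Pfkp (0.11), Aldoa (0.081), Gapdh (0.071), Pgam1 (0.086), G6pdx (0.19), Pgd (0.22), Rpe (0.081), Phgdh (0.03), Shmt1 (0.075), Tyms (0.23), Ppat (0.018), Paics (0.09) and Rrm2 (0.07) for ER against cytosol ribosomes. There 1 further enzyme changed sign but passed under neither scale. Elsewhere among named genes, signs changed only for ratios that passed neither with the main setting nor with the alternative. For ER against cytosol ribosomes these were 3 with RLE size factors and with DESeq2, and 5 without mitochondrially encoded genes. Leaving out 1 library gave up to 7. A minimum change of 1.2-fold left 9 lower for ER against cytosol ribosomes, 0 higher and 19 lower for ER against whole-cell RNA, 0 higher and 8 lower for cytosol against whole-cell RNA, and 8 lower in the difference. The 6 higher on cytosol ribosomes against whole-cell RNA became 10 with RLE size factors and with DESeq2, 15 without mitochondrially encoded genes, and 13 without the filter or with the groups compared alone. In these settings the median of all tested genes moved from -0.054 to between -0.013 and 0.005.

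Leaving out 1 library gave 1 to 2 higher for ER against cytosol ribosomes, 0 to 1 higher for ER against whole-cell RNA and 6 to 13 higher for cytosol against whole-cell RNA. The replicate block gave 27 lower and 1 higher for ER against cytosol ribosomes and 17 lower for cytosol against whole-cell RNA; within targeting it gave 7 higher and 19 lower there, and it moved no count by over 1.5 times. Libraries with the same number did not all deviate together (correlations -0.266 to 0.263), so the numbers were not taken as pairs. The cause of changes other than those built into a scale or a minimum was not tested.

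Depth limited Rpia most, with 69 to 142 counts per library. Opposite-strand overlaps, the Eno1 copy and the unknown share of captured ribosomes limit all statements on level.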
